A study of Mus musculus with 8 samples.

Results

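Frmpd1, its 2 paralogs Frmpd3 and Frmpd4, and the 2 genes Gpsm1 and Gpsm2, whose proteins bind the Frmpd1 protein, were followed in nuclear RNA of cortical GABAergic neurons, the inhibitory neurons of the cortex. The 5 genes were taken by symbol from 55341 gene rows, and all 5 were among the 17355 genes with enough counts to be tested. Frmpd1 was chosen by its measured difference between the groups compared here, so its values are a description and carry no test. The other 4 were named for their relation to Frmpd1.

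Both groups were juvenile mice made hypothyroid by giving propylthiouracil (PTU), a blocker of thyroid hormone synthesis, to the pregnant mothers. The PTU group (mice 9 to 12, n = 4) had no further treatment. The PTU+TH group (mice 13 to 16, n = 4) received thyroid hormone (TH) by injection into the abdomen 24 h ahead of brain collection. In all 8 mice a Cre-dependent reporter marked the nuclei of GABAergic neurons for sorting, with 1 library per cortex. The labels give neither the driver of Cre nor age in days, sex, litter or hormone dose, and no mice with normal thyroid hormone are among the 8.

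Frmpd1 carries a FERM domain and a PDZ domain, modules that hold proteins at the inner face of the membrane. It binds Gpsm1 (also called AGS3) and Gpsm2 (also called LGN), which carry GoLoco motifs, short stretches that grip inhibitory G protein alpha subunits in their GDP-bound form and keep them apart from the beta and gamma subunits. Gpsm2 is best known for placing the mitotic spindle in dividing cells. Frmpd4 (also called Preso1) is a scaffold of excitatory synapses that binds PSD-95, Homer proteins and the glutamate receptor Grm5, while Frmpd3 is the least studied of the family.

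Library totals lay between 21762810 and 29084071 counts. The pan-GABAergic markers summed to between 2366 and 2816 CPM (counts scaled to a common library size) in PTU and between 2237 and 2470 CPM in PTU+TH, and 0 of 6 tested members passed the test (edgeR quasi-likelihood test) and 0 had an unadjusted p under 0.05. Excitatory neuron markers summed to between 276.9 and 319.5 CPM in PTU and between 247.4 and 330.7 CPM in PTU+TH. Endothelial markers summed to between 33.55 and 152.3 CPM in PTU and between 33.55 and 108.5 CPM in PTU+TH, and no list of non-neuronal markers had a called gene. Oligodendrocyte markers summed to between 96.22 and 123.2 CPM in PTU and between 94.16 and 192.7 CPM in PTU+TH, with 5 of 6 log2 fold changes positive and a median of 0.47. Counts of Y-linked genes were 0 in mice 15 and 16 and present in 6 libraries. Over all 17355 tested genes edgeR called 2.12%. Of the markers for classes of GABAergic neurons it called 3 of 7 PV genes as higher in PTU+TH (Syt2, Kcna1 and Nefh, with 6 of 7 log2 fold changes positive and a median of 0.50). In the VIP class 1 of 6 was called as lower (Htr3a), all 6 were negative and the median was -0.29. In the SST class 1 of 6 was called as lower (Calb1), with 2 positive, 4 negative and a median of -0.13. In the LAMP5 class 1 of 5 was called as higher (Gabrd), while the log2 fold changes of the other 4 genes were negative and the median of all 5 was -0.10. In RNA pooled from many nuclei, fewer cells of a type and less RNA per cell cannot be told apart, and excitatory and endothelial markers were each entered as a covariate in an alternative fit. The part of the other markers in the results that follow was not tested.

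In build GRCm38, Frmpd1 lies on chromosome 4 (45184875 to 45285936, plus strand), Gpsm1 on chromosome 2 (26315515 to 26348237, plus strand) and Gpsm2 on chromosome 3 (108678638 to 108722309, minus strand). Frmpd3 (140342263 to 140435467, plus strand) and Frmpd4 (167471309 to 168577231, minus strand) both lie on chromosome X. Frmpd4 is the longest by far, with a gene body of 1105.923 kb against 101.062 kb for Frmpd1, 93.205 kb for Frmpd3, 32.723 kb for Gpsm1 and 43.672 kb for Gpsm2. The longest coding sequences run to 1549 codons in Frmpd1, 1774 in Frmpd3, 1320 in Frmpd4, 705 in Gpsm1 and 679 in Gpsm2. No run of 25 bases was shared by the annotated transcripts of any of the 10 pairs of these genes, the longest shared run being 15 bases. Between 90.83% (Frmpd1) and 100% (Frmpd3) of each gene body was free of other genes. Frmpd1os, an antisense RNA whose body lies wholly inside Frmpd1, was listed at 0 in all 8 libraries, and such a 0 is not read as absence.

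The bases before the start sites of 4 of these genes are shown to set the promoter of Frmpd1 beside those of its partners and of its paralog Frmpd4. They are RefSeq sequences in build GRCm38.p6, on the strand of the gene, and end before the annotated transcript begins. Capitals mark AGGTCA, the half-site that thyroid hormone receptors bind, and GGGCGG, the GC box bound by Sp1 family factors, on either strand. The stretches lie at chr4:45184656-45184874 (Frmpd1), chr2:26315283-26315514 (Gpsm1), chr3:108722310-108722549 (Gpsm2) and chrX:168577235-168577484 (Frmpd4).
Frmpd1: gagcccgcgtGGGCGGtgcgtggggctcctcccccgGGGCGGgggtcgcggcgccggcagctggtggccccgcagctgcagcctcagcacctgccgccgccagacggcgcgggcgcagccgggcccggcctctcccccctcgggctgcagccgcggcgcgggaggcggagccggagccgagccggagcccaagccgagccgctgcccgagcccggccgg
Gpsm1: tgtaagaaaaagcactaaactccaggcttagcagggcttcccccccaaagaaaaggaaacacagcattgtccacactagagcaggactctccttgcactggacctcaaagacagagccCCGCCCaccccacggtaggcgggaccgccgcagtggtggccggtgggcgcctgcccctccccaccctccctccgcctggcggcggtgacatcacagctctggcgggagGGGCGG
Gpsm2: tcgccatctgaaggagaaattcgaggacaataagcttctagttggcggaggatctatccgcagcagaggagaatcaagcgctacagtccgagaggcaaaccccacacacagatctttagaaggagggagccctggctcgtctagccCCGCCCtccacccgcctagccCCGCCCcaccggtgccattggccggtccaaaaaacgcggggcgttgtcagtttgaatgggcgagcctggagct
Frmpd4: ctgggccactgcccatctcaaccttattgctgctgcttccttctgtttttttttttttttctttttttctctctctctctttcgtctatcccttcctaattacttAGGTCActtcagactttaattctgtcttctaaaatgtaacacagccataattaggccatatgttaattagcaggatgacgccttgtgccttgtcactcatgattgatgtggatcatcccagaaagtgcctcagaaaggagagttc

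The Frmpd1 promoter stood out by its base composition. Over the 300 bases from 250 before to 50 after its start, 83.3% were G or C, a share above that of 99.7% of the 32851 promoters in the table, whose median was 52.7%. It held 46 CpG dinucleotides against a median of 7. The promoters of Gpsm1 and Gpsm2 at the annotated gene start were 66.7% and 61.0% G or C, and that of Frmpd3 was 57.3%. The promoters of Frmpd4 differed among themselves, with 41.7% and 3 CpG in the one at its annotated gene start and 69.7% and 19 CpG in promoter 3 of the table.

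GGGCGG was found in 5 of the 10 promoters listed for the 5 genes, and 35.7% of all promoters hold it. It occurred 4 times in the Frmpd1 promoter, 2 times in that of Gpsm2, 2 times in promoter 3 and 3 times in promoter 4 of Gpsm1, and 2 times in promoter 3 of Frmpd4. AGGTCA was found in 3 of the 10 promoters listed for the 5 genes, at 2 distinct sites, and 16.3% of all promoters hold it. It lay at position -145 from the start in the first Frmpd4 promoter. The other site is shared by a pair of overlapping upstream Gpsm1 promoters, 32 bases past the start of one and 26 past that of the other. The Frmpd1 window had 0. A pair of half-sites as a direct repeat 4 bases apart (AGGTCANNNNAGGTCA) was in 0 of the 10 and in 0.0152% of all promoters. These are matches of letters in short windows and say nothing of binding inside the windows or outside them.

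Frmpd1 was low without hormone and high with it. The 4 PTU libraries held 13.8, 17.1, 21.9 and 19.0 CPM, and the 4 PTU+TH libraries 73.1, 83.2, 76.0 and 93.1 CPM. Every PTU+TH library thus lay above every PTU library, with a wide gap between the groups. Its mean was 17.95 ± 3.38 CPM for PTU against 81.35 ± 8.94 CPM for PTU+TH (SD, n = 4 each), a log2 fold change of 2.18 (SE 0.14) or a factor of 4.54. Among the 17355 genes tested, Frmpd1 ranked number 17 by log2 fold change. Counts of Frmpd1 ran from 380 in mouse 9 to 2421 in mouse 14, so that counting error in a single library was between 2.03% and 5.13% of the value, below the spread between mice (CV 18.8% in PTU and 11.0% in PTU+TH).

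**Figure D1:**
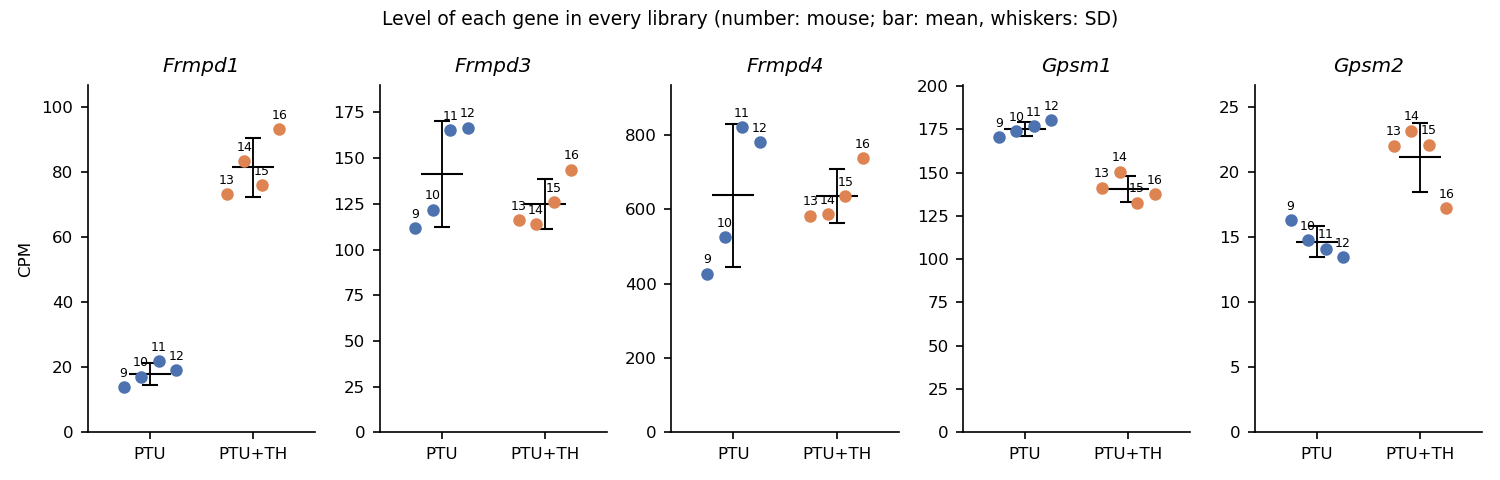
Level of Frmpd1, Frmpd3, Frmpd4, Gpsm1 and Gpsm2 in CPM (y axis, starting at 0) in each of the 4 PTU and 4 PTU+TH libraries (points, labelled by mouse), with group means (bars) and SD (whiskers). The groups are apart for Frmpd1, Gpsm1 and Gpsm2 and overlap for Frmpd3 and Frmpd4.

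By edgeR, with p adjusted over all genes and a threshold of 0.05, 1 of the 5 genes was called. That gene was Frmpd1, whose call is the result it was chosen for, and 2.12% of all tested genes were called (1.49% as higher and 0.634% as lower). An unadjusted p under 0.05, counted for the gene lists further on, was reached by 12.8% of all tested genes. In 3 of the 5 the groups did not overlap, Frmpd1 and Gpsm2 with PTU+TH above and Gpsm1 with PTU+TH below. Without Frmpd1, whose place follows from how it was chosen, the count is 2 of 4. Over all tested genes this held for 8.71%, of which 4.68% had PTU+TH above and 4.03% had it below. 

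No difference was called in either paralog. Frmpd3 held 111.7, 121.7, 165.2 and 166.7 CPM across the PTU mice, and 116.1, 113.9, 125.8 and 143.7 CPM across the PTU+TH mice, so the PTU+TH values lay inside the PTU range. The difference was -0.18 on the log2 scale (SE 0.14, 95% interval -0.47 to 0.12, edgeR adjusted p = 0.68), which bounds the ratio of PTU+TH to PTU between 0.72 and 1.08.

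Frmpd4, the synaptic scaffold, had the most counts of the 5, with a mean of 637.9 ± 192.6 CPM for PTU against 635.7 ± 72.4 CPM for PTU+TH (SD, n = 4 each). Its PTU libraries spread widely, with 426.4 and 524.3 CPM in mice 9 and 10 and 820.6 and 780.4 CPM in mice 11 and 12. The PTU+TH libraries, at 582.7, 586.8, 635.1 and 738.3 CPM, lay inside that range. The log2 fold change was near 0 (-0.005, SE 0.20, 95% interval -0.43 to 0.42, edgeR adjusted p = 0.997), so that ratios of PTU+TH to PTU from 0.741 to 1.34 are inside the interval, and its sign changed with the scaling and with the library left out.

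The spread of Frmpd4 among the PTU mice went with the share of counts on long genes. The 240 genes with a body over 500 kb, Frmpd4 among them, took 11.5% and 13.3% of the counts in mice 9 and 10, 18.7% and 17.3% in mice 11 and 12, and from 14.6% to 18.3% in the PTU+TH mice. As a share of the counts on these 240 genes, Frmpd4 ran only from 0.379% in mouse 16 to 0.427% in mouse 12. Frmpd3, which is not in that class of length, was the member whose profile lay nearest to that of Frmpd4, at a root mean square difference of 0.144 in log2 CPM over the 8 libraries. What sets the share of long genes in a library was not tested.

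Frmpd3 and Frmpd4 are X-linked, and mice 15 and 16 had no Y-linked counts. Frmpd4 was at 635.1 and 738.3 CPM in these mice and at 582.7 and 586.8 CPM in mice 13 and 14 of the same group. Long genes also took more of the counts of mice 15 and 16 (16.6% and 18.3%) than of mice 13 and 14 (14.6% each). The Frmpd4 share of these counts was lower for mouse 15 (0.387%) and mouse 16 (0.379%) than for mouse 13 (0.408%) and mouse 14 (0.403%). PTU mice 11 and 12, which had Y-linked counts, were higher still in CPM (820.6 and 780.4). What sets these differences was not tested. With Y-linked counts as a covariate the log2 fold changes were -0.30 for Frmpd3 and -0.13 for Frmpd4, with edgeR adjusted p-values of 0.65 and 0.959. Both mice without Y-linked counts were in PTU+TH, so the group difference in this fit rests on mice 13 and 14. Leaving out mice 15 and 16 gave nearly the same values, -0.30 for Frmpd3 and -0.12 for Frmpd4. Xist, which would mark a silenced X chromosome, lies wholly under other genes and was listed at 0 in every library. Tsix, transcribed from the opposite strand across Xist, had 129 and 127 counts in mice 15 and 16 and between 1 and 8 counts in the other 6 libraries, and without strand its reads and those of Xist cannot be told apart.

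The groups were apart for both partners of Frmpd1, in opposite directions, and neither passed the threshold. Gpsm1 held 170.4, 173.9, 176.7 and 180.2 CPM across the PTU mice, and 141.2, 150.6, 132.6 and 137.4 CPM across the PTU+TH mice. All 4 PTU+TH libraries were below all 4 PTU libraries. The log2 fold change was -0.32 (SE 0.08, 95% interval -0.50 to -0.14, n = 4 each), a ratio of 0.801, with an edgeR adjusted p = 0.0727.

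For Gpsm2 the PTU libraries held 16.3, 14.8, 14.1 and 13.5 CPM, and the PTU+TH libraries 22.01, 23.2, 22.1 and 17.2 CPM. All 4 PTU+TH libraries were above all 4 PTU libraries, with mouse 16 close to the highest PTU library, mouse 9. The log2 fold change was 0.53 (SE 0.13, 95% interval 0.25 to 0.80, n = 4 each), a factor of 1.44, with an edgeR adjusted p = 0.0528. The 95% intervals of both genes leave out 0 before adjustment, with unadjusted p-values of 0.00199 for Gpsm1 and 0.00116 for Gpsm2 in the edgeR fit.

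The calls of both partners depended on the processing. DESeq2 gave adjusted p-values of 0.00478 for Gpsm1 and 0.00612 for Gpsm2 at almost the same log2 fold changes (-0.32 and 0.53), in a test that called 4.39% of the genes it tested. Over the 20 alternatives the adjusted p of edgeR, voom or DESeq2 ran from 0.00478 to 0.491 for Gpsm1, under 0.05 in 2, and from 0.00612 to 0.207 for Gpsm2, under 0.05 in 6, and the direction was the same in all 20 for both. With excitatory markers as a covariate edgeR gave 0.0395 for Gpsm1 and 0.037 for Gpsm2, and limma voom gave 0.0717 and 0.0618. Gpsm2 passed in edgeR with upper quartile scaling (0.0467), with no filter beyond 1 count (0.0466), without PTU mouse 9 (0.033) and without PTU+TH mouse 16 (0.0379). Without mice 15 and 16 the edgeR adjusted p was 0.491 for Gpsm1 and 0.139 for Gpsm2, with log2 fold changes of -0.26 and 0.63.

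**Figure D2:**
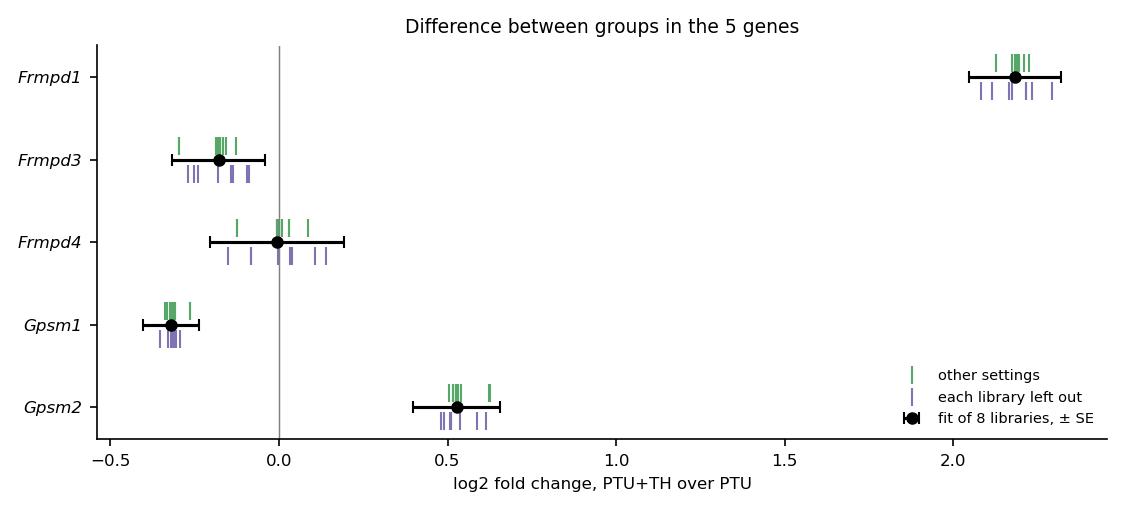
Log2 fold change of PTU+TH over PTU (x axis) for each of the 5 genes, with the fit of all 8 libraries (black point, whiskers ± SE), the fits under other settings (green ticks) and the fits that leave out 1 library (purple ticks). Ticks of Frmpd1 lie between 2.08 and 2.29, those of Gpsm2 between 0.48 and 0.63, those of Gpsm1 between -0.35 and -0.26, and those of Frmpd4 lie on both sides of 0.

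The ratio of the partners to each other restates these differences. Gpsm1 was lower and Gpsm2 higher in all PTU+TH libraries, so the ratio could not overlap between the groups. Per kb of exon, Gpsm1 was 7.60, 8.56, 9.10 and 9.71 times Gpsm2 in the PTU mice, against 4.66, 4.72, 4.36 and 5.79 times in the PTU+TH mice. Gpsm1 was thus the larger of the pair in all 8 libraries, by less in PTU+TH. The sum of both, per kb of exon, was between 35.8 and 36.9 CPM in PTU and between 29.9 and 33.9 CPM in PTU+TH, and is mostly Gpsm1.

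Gpsm1 and Gpsm2 each share an end with a gene of the opposite strand, which bears on their counts if strand was not used. Gpsm1 shares 117 exon bases with Dnlz and Gpsm2 shares 203 with Clcc1. Dnlz had a log2 fold change of 0.19 (SE 0.12) and Clcc1 of -0.12 (SE 0.12), with edgeR adjusted p-values of 0.577 and 0.759. The part of the shared bases in the Gpsm1 and Gpsm2 counts was not tested.

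Levels of the 5 genes can be set side by side only per length, and whether introns were counted is not stated. Per kb of exon, the PTU means were 67.9 ± 20.5 CPM for Frmpd4, 32.6 ± 0.77 for Gpsm1, 13.8 ± 2.80 for Frmpd3, 3.75 ± 0.31 for Gpsm2 and 3.37 ± 0.63 for Frmpd1 (SD, n = 4 each). The last pair did not differ beyond their spread, since Frmpd1 ran from 2.60 to 4.11 and Gpsm2 from 3.45 to 4.17. In PTU+TH, Frmpd1 was at 15.3 ± 1.68 CPM per kb of exon, above Frmpd3 at 12.2 ± 1.32 and Gpsm2 at 5.40 ± 0.68, and its range (13.7 to 17.5) overlapped that of Frmpd3 (11.1 to 14.0).

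Frmpd1 took 4.42%, 4.52%, 3.82% and 3.47% of the summed exon-scaled level of the 3 Frmpd genes in the PTU mice, against 15.8%, 17.5%, 15.2% and 15.9% in the PTU+TH mice. Most of that exon-scaled sum was Frmpd4 in both groups. By gene body length Frmpd3 was instead the largest of the 3 in either group (1.34 CPM per kb with hormone). Shares were taken by exon length only. Per kb of whole gene body the order in PTU became Gpsm1 (5.36 CPM), Frmpd3 (1.52), Frmpd4 (0.577), Gpsm2 (0.336) and Frmpd1 (0.178), so that Frmpd1 was lowest and Gpsm2 next to it by both lengths, and the other 3 changed places. In PTU+TH Frmpd1 was number 3 by either length, at 0.805 CPM per kb of gene body against 0.575 for Frmpd4.

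The spread between mice differed among the 5 genes. The biological coefficient of variation estimated by edgeR was 9.67% for Gpsm1, below that of all but 3.31% of the 634 genes of like abundance. It was 13.6% for Gpsm2, 13.7% for Frmpd1, 14.4% for Frmpd3 and 19.1% for Frmpd4. Those of Frmpd1, Frmpd3 and Frmpd4 were above 82.2%, 87.7% and 72.4% of genes of like abundance.

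The genes most like Frmpd1 over the 8 libraries were sought among 15230 genes averaging 1 CPM or more, by the root mean square difference of log2 CPM after each gene was centred on its own mean. The nearest were Col9a2, a chain of type IX collagen (0.288), Arhgef37 (0.29), Klhl33, a Kelch-like gene (0.304), Gls2, a glutaminase (0.308), and Slc35g1, a solute carrier (0.319). Their log2 fold changes were 1.93, 1.69, 1.96, 1.78 and 2.23, against 2.18 for Frmpd1. Likeness of profile chose these genes, so their direction is part of the choice. The same 5 were found with a prior count of 0.5 in place of 2. Among the 5 genes described, Gpsm2 lay nearest to Frmpd1, at 0.889, and Gpsm1 farthest, at 1.27.

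**Figure D3:**
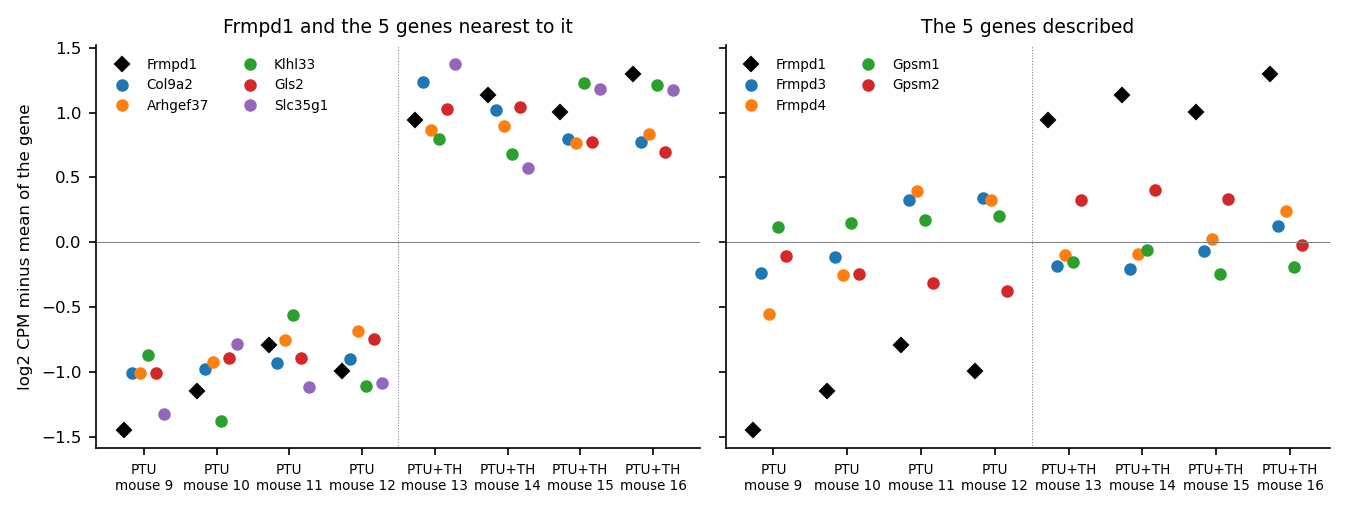
Log2 CPM of each gene minus its own mean over the 8 libraries (y axis) in each mouse (x axis), for Frmpd1 (black diamonds) and the 5 genes nearest to it (left) and for the 5 genes described (right). On the left all genes are below 0 in the PTU mice and above 0 in the PTU+TH mice, and on the right only Frmpd1 shows that pattern at this size.

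No gene beside Frmpd1 on chromosome 4 was called. Of 13 tested genes within 500 kb, 0 passed the edgeR test (1 at an unadjusted p under 0.05), and their log2 fold changes ran from -0.29 (Shb) to 0.23 (Zcchc7). Trmt10b, the nearest at 11.2 kb past the end of Frmpd1, averaged 28.8 ± 4.47 against 29.6 ± 0.9989 CPM, PTU against PTU+TH (SD, n = 4 each). Tomm5, the nearest on the other side, had a log2 fold change of 0.16 (SE 0.16, edgeR adjusted p = 0.772). Around the other 4 genes 0 of 7, 4, 21 and 25 tested neighbours passed (Frmpd3, Frmpd4, Gpsm1 and Gpsm2), with 2, 1, 2 and 3 at an unadjusted p under 0.05 in edgeR.

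**Figure D4:**
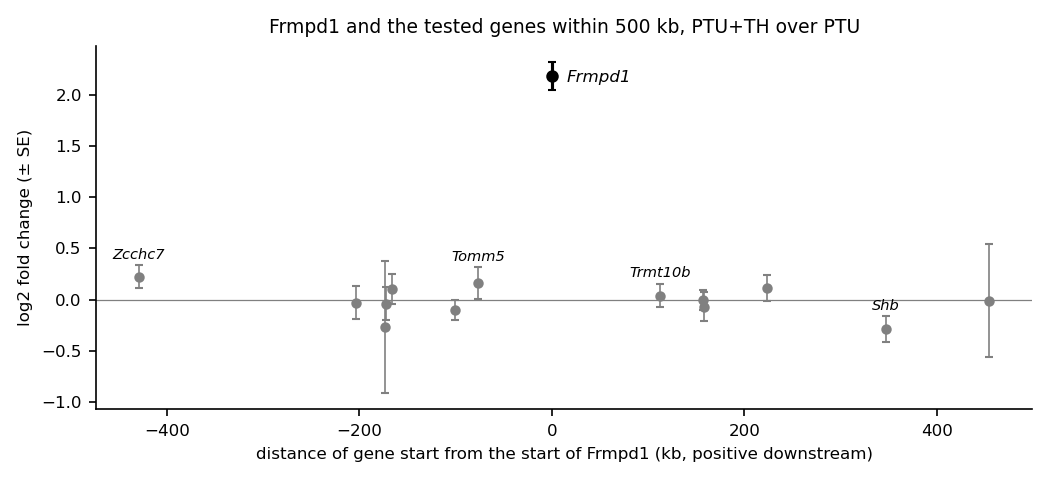
Log2 fold change of PTU+TH over PTU with its SE (y axis) for Frmpd1 (black) and the 13 tested genes within 500 kb (grey), by distance of their start from that of Frmpd1 in kb (x axis). Frmpd1 stands at 2.18, and the neighbours lie between -0.29 and 0.23.

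In the gene lists that follow, genes whose groups did not overlap are named for that trait after their values were seen, and 8.71% of all tested genes have it.

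The G protein subunits that Gpsm1 and Gpsm2 bind showed no call. Of 8 genes for inhibitory alpha subunits 4 were tested and 0 passed in edgeR (1 at an unadjusted p under 0.05, 0 with DESeq2, 0 without overlap), with a median log2 fold change of 0.05 against -0.007 over all tested genes. Gnao1, the alpha subunit of Go, averaged 302.1 ± 24.6 CPM against 316.4 ± 53.4 CPM, and Gnai1, an alpha subunit of Gi, 109.5 ± 17.4 against 111.9 ± 10.7 CPM (PTU against PTU+TH, SD, n = 4 each); the sign of both log2 fold changes turned under some alternatives. Gnai2, with 56.9, 58.8, 48.7 and 44.1 CPM for PTU against 41.6, 33.0, 46.1 and 33.9 CPM for PTU+TH, had a log2 fold change of -0.43 (SE 0.13, edgeR adjusted p = 0.126), and the groups overlapped through mouse 15. Gnaz lies wholly under another gene and was listed at 0.

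Among the other GoLoco proteins, Rgs12, which joins a GoLoco motif to a domain that speeds up GTP hydrolysis by G proteins, fell. The PTU values were 94.3, 94.7, 78.8 and 99.7 CPM and the PTU+TH values 75.6, 66.4, 58.3 and 60.7 CPM, with all PTU+TH libraries below all PTU libraries. The log2 fold change was -0.49 (SE 0.10, n = 4 each, edgeR adjusted p = 0.0267). Rap1gap, which acts on the small G protein Rap1, averaged 168.5 ± 17.6 CPM against 223.7 ± 15.1 CPM, PTU against PTU+TH (SD, n = 4 each), at a log2 fold change of 0.41 with an edgeR adjusted p of 0.0616. Rgs14, a further RGS protein with a GoLoco motif, averaged 3.83 ± 1.498 against 2.04 ± 0.62 CPM. Of the 5 genes of this list 3 were tested, 0 passed as higher and 1 as lower, and the median was -0.49, with all 3 at an unadjusted p under 0.05, 2 called by DESeq2 and 2 (Rgs12 and Rap1gap) without overlap. Rgs12 was not called under 8 of 20 alternatives, among them the fits without PTU mice 10 or 12 and without PTU+TH mice 14, 15 or 16 (edgeR adjusted p from 0.0787 to 0.102), and its adjusted p was 0.363 without mice 15 and 16 together.

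Genes for the proteins that act with Gpsm1 and Gpsm2 at the cell cortex, such as Insc, Numa1 and the Par complex, had 0 of 16 calls in edgeR (3 at an unadjusted p under 0.05, 1 with DESeq2, 3 without overlap) and a median log2 fold change of 0.04. Afdn, which links actin to junctions, averaged 265.2 ± 28.4 CPM against 243.6 ± 18.1 CPM, PTU against PTU+TH (SD, n = 4 each). Ric8a, a chaperone and exchange factor of G protein alpha subunits, held 117.5, 112.0, 96.7 and 115.7 CPM for PTU against 95.4, 92.2, 74.5 and 73.2 CPM for PTU+TH, all below. Its log2 fold change was -0.40 (SE 0.11) with an adjusted p of 0.0857 in edgeR and 0.0313 in DESeq2. Without overlap in the other direction were Dlg1, a scaffold of cell junctions (0.22, edgeR adjusted p 0.32), and the kinase Stk11 (0.33, edgeR adjusted p 0.316).

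Of the synaptic partners of Frmpd4, 0 of 13 passed in edgeR (4 at an unadjusted p under 0.05, 1 with DESeq2, 4 without overlap), with a median of 0.02. Grm5, the glutamate receptor held by Frmpd4, averaged 948.9 ± 218.0 CPM against 1057 ± 112.6 CPM, PTU against PTU+TH (SD, n = 4 each). Dlg2, a relative of PSD-95, averaged 2807 ± 899.8 against 2845 ± 389.3 CPM, with a sign that turned under some alternatives, and Shank1, a scaffold that binds Homer, 340.8 ± 80.6 against 380.0 ± 34.8 CPM. Shank2, a relative of Shank1, held 140.0, 171.9, 163.3 and 165.1 CPM for PTU against 198.5, 191.7, 207.7 and 228.4 CPM for PTU+TH, all above. Its log2 fold change was 0.37 (SE 0.10) with an adjusted p of 0.0835 in edgeR and 0.0145 in DESeq2. The others without overlap were Homer2, above at 0.32 (edgeR adjusted p 0.12), Homer3, below at -0.56 (0.281), and Git1, a signalling scaffold, below at -0.17 (0.372). The summed level of the 13 genes ran from 3824 to 6668 CPM over the PTU mice and from 4998 to 6342 CPM over the PTU+TH mice.

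The log2 fold changes of the other FERM genes listed were at most 0.36 in size. Of the 4 further genes that join FERM and PDZ domains (Frmpd2, Ptpn3, Ptpn4 and Ptpn13), 0 passed in edgeR, with 0 at an unadjusted p under 0.05, 0 with DESeq2 and 0 without overlap. Ptpn4, a tyrosine phosphatase, averaged 204.7 ± 25.5 CPM against 213.9 ± 9.29 CPM, PTU against PTU+TH (SD, n = 4 each). Of 14 genes with a FERM but no PDZ domain, 1 rose and 0 fell in edgeR (2 at an unadjusted p under 0.05, 1 with DESeq2, 2 without overlap). That gene, Epb41l2, a relative of the red cell protein 4.1 that ties the membrane to the spectrin skeleton, held 104.1, 102.2, 106.4 and 99.7 CPM for PTU against 131.6, 129.6, 130.7 and 138.0 CPM for PTU+TH, with no overlap. Its log2 fold change was 0.36 (SE 0.08) with an edgeR adjusted p of 0.0271. The call was lost under 10 of 20 alternatives, among them the fits without PTU mice 10 or 12 or without any 1 of the 4 PTU+TH mice (edgeR adjusted p from 0.0648 to 0.0947). Frmd7, the other without overlap, averaged 5.86 ± 0.55 against 4.67 ± 0.23 CPM (edgeR adjusted p 0.467). Frmd4a averaged 1082 ± 403.6 against 1246 ± 341.7 CPM, with an edgeR adjusted p of 0.852 and a sign that turned under some alternatives.

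The next list holds genes for RGS proteins, which end G protein signalling, with Rgs7bp, not itself an RGS protein, among the 14 tested. Of these 14, 1 rose and 0 fell in edgeR (4 at an unadjusted p under 0.05, 4 with DESeq2, 3 without overlap). Their log2 fold changes were positive in 7 and negative in 7. Rgs7bp is counted among the positive ones, those under 0.05, those called by DESeq2 and those without overlap. Rgs10 rose from 8.01, 6.59, 5.15 and 5.38 CPM in PTU to 16.5, 17.1, 13.6 and 12.6 CPM in PTU+TH, with no overlap. Its log2 fold change was 1.25 (SE 0.18) with an edgeR adjusted p of 0.00228, and each of the 20 alternatives called it. Rgs10 is a small RGS protein that is also abundant in microglia. All 5 tested microglial markers had positive log2 fold changes (median 0.63), 0 of them called and 1 at an unadjusted p under 0.05, with a sum of 10.02 to 15.2 CPM for PTU against 13.7 to 30.4 CPM for PTU+TH. P2ry12, wholly under another gene, was listed at 0, and the part of these markers in Rgs10 was not tested. Rgs6 held 131.8, 163.6, 270.5 and 222.6 CPM for PTU against 291.8, 287.0, 329.0 and 363.5 CPM for PTU+TH, at a log2 fold change of 0.69 (SE 0.19) with an adjusted p of 0.101 in edgeR and 0.0116 in DESeq2. Rgs7bp, which anchors RGS proteins of the Rgs7 family at the membrane, averaged 208.4 ± 30.1 against 283.1 ± 45.55 CPM, also without overlap (adjusted p 0.138 in edgeR and 0.0486 in DESeq2). The lowest log2 fold change of the list was that of Rgs4 (-0.80, SE 0.26, edgeR adjusted p 0.198), named after its value was seen, which averaged 66.2 ± 28.0 against 38.2 ± 5.26 CPM with overlap. Rgs7 averaged 350.1 ± 80.7 against 415.3 ± 53.6 CPM, PTU against PTU+TH (SD, n = 4 each).

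Of 15 genes for beta and gamma subunits 10 were tested and 0 passed in edgeR (1 at an unadjusted p under 0.05, 0 with DESeq2, 0 without overlap). Gnb1 averaged 199.1 ± 19.6 against 212.3 ± 14.1 CPM. Gnb2 and Gng3 lie wholly under other genes and were listed at 0. Of the effectors of Gi, the adenylyl cyclases and the Kir channels, 0 of 10 passed (2 at an unadjusted p under 0.05, 2 with DESeq2), with a median log2 fold change of 0.07. Adcy1 averaged 473.3 ± 31.1 against 497.4 ± 23.6 CPM, PTU against PTU+TH (SD, n = 4 each). In 2 of the 10 genes all PTU+TH libraries were above all PTU libraries, where 4.68% of all tested genes were. Kcnj6, a Kir channel opened by G proteins, held 57.8, 77.5, 106.5 and 96.3 CPM for PTU against 110.6, 118.6, 137.2 and 155.9 CPM for PTU+TH. Its log2 fold change was 0.63 (SE 0.17), with an edgeR adjusted p of 0.101. Kcnj9, a further channel of that kind, held 62.7, 55.8, 47.9 and 48.8 CPM for PTU against 72.2, 66.6, 82.5 and 67.9 CPM for PTU+TH, at a log2 fold change of 0.43 (SE 0.11) with an edgeR adjusted p of 0.0627. DESeq2 called both (0.0176 and 0.0193), and over the 20 alternatives the adjusted p reached 0.601 for Kcnj6 and 0.408 for Kcnj9. For scale, Hr, Klf9 and Dbp, taken as genes known to respond to TH, had log2 fold changes of 3.88, 1.37 and 1.09, and that of Frmpd1 lay between those of Hr and Klf9.

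**Figure D5:**
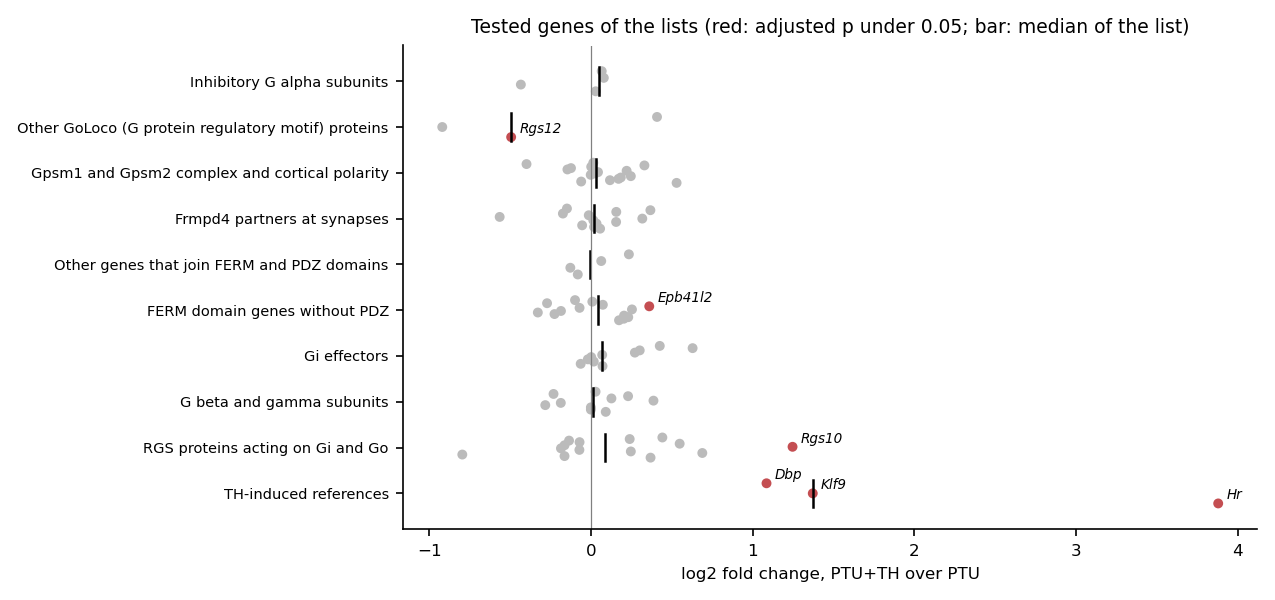
Log2 fold change of PTU+TH over PTU (x axis) for the tested genes of 10 lists (y axis), with genes at an adjusted p under 0.05 in red and named, other genes in grey and the median of each list as a bar. Apart from the TH-induced references, the red genes are Rgs12 below 0 and Epb41l2 and Rgs10 above 0.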

How the data were processed

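Nuclear RNA of sorted GABAergic nuclei from 8 cortices was made into cDNA with SMART-Seq v4 and into libraries with Nextera XT, and read single-end on a NextSeq, per the labels' protocols. The deposited files hold raw counts per gene symbol, 1 file per library. Bowtie2 2.5.3 and build mm10/GRCm38 are named per the submitters' processing notes. The counting program, annotation, strand setting and treatment of introns are not given in the sources used here. The 55341 symbols equal those of GENCODE M21, from which positions and lengths were taken. Of the rows, 0 named no gene. Groups came from the titles. Nothing says that mice of a group came from separate litters, so p-values measure the spread between these mice. No library was a copy of another of its group (chi-square per degree of freedom of 8.44 or more in the 12 pairs within groups).

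Counts were filtered with filterByExpr, scaled by TMM and tested with edgeR 4.0.16 in R 4.3.3 (robust quasi-likelihood test, group as the only term, two-sided, Benjamini-Hochberg over 17355 genes, called at an adjusted p under 0.05), after the scripts were tested on simulated data. CPM values are computed from the deposited counts with TMM. Intervals are at 95%, unadjusted, from the SE of the fit, and counting error is the Poisson error of reads, which are not independent molecules. Members and gene lists were chosen with earlier results of these data known. From each list the genes that passed are named, with the 3 of highest CPM in the lists of alpha subunits, GoLoco proteins and Frmpd4 partners and the 1 highest in the others, numbers settled after values were seen. List genes whose groups do not overlap were added to these after values were seen. The windows of 500 kb and the class of long genes were chosen after values were seen. Alternatives were other scalings, filters, thinning, covariates, DESeq2 1.42.0, limma voom 3.58.1 and leaving out each library. Protein sequences were not used here.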

Additional observations from a re-analysis of the deposited data

How the results depend on the processing

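The log2 fold change of Frmpd1 ran from 2.08 to 2.29 over 20 alternatives and that of Frmpd3 from -0.30 to -0.09, uncalled in all 20. The sign of Frmpd4 turned to 0.008 (upper quartile scaling), 0.029 (limma voom), 0.087 (excitatory markers as a covariate) and 0.031 (endothelium markers as a covariate), and leaving out 1 library gave -0.151 (without PTU mouse 9) to 0.14 (without PTU mouse 11). Gpsm1 was called by DESeq2 (-0.321) and with excitatory markers as a covariate (-0.309), and in none of the 8 fits without 1 library (-0.353 to -0.292, adjusted p 0.0535 to 0.216). Gpsm2 was called with upper quartile scaling (0.541), DESeq2 (0.526), no filter beyond 1 count (0.53) and excitatory markers as a covariate (0.517). Leaving out 1 library gave 0.482 to 0.613 for Gpsm2, called without PTU mouse 9 or PTU+TH mouse 16. The 368 genes called (258 higher, 110 lower) became 721 with DESeq2 (441 higher, 280 lower), 129 with Y-linked counts as a covariate (106 and 23) and 58 without mice 15 and 16 (52 and 6). They were 145 at an adjusted p under 0.01, 601 at 0.1, and 182 (without PTU+TH mouse 15) to 499 (without PTU mouse 9) without 1 library. For these 2 Y-linked settings, in that order, log2 fold changes turned to -0.094 and -0.093 (Gnai1), -0.16 and -0.158 (Gnao1), -0.121 and -0.12 (Dlg2) and -0.162 and -0.16 (Frmd4a), and Gnai1 was -0.005 with library totals. Leaving out 1 library gave -0.025 to 0.152 for Gnai1, -0.015 to 0.139 for Gnao1, -0.129 to 0.194 for Dlg2 and -0.005 to 0.119 for Ptpn4. The cause of these changes was not tested. Gnai2, Rap1gap, Kcnj6, Kcnj9, Rgs6, Shank2, Ric8a and Rgs7bp, uncalled in the fit reported, were called in 2, 4, 3, 5, 4, 2, 1 and 1 of 20 alternatives. No paired analysis was possible because no number is shared by mice of both groups. With 4 mice per group, the 95% interval of Frmpd4 held ratios from 0.741 to 1.34, while counting error was at most 0.924% of its level.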
